A study of Mus musculus with 12 samples.

Results

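The genes described here are 35 mouse genes of adipocyte differentiation and lipid storage, chosen by symbol. All 35 were found by their Ensembl identifiers among the 35727 genes of the count table. They cover 2 transcription factors, 4 secreted adipokines, 4 lipid droplet proteins, 6 genes of lipid and glucose uptake, 4 of fat breakdown, 6 of fatty acid synthesis, 7 of triglyceride synthesis, and *Ucp1* and *Car3*. After the filter on low counts 31 could be tested. *Lep*, *Cidea*, *Pck1* and *Ucp1* had too few counts.

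Bulk RNAseq was performed on fibroblasts from neonatal mouse hearts that were given *Sox17* and *Erg* or served as control, and RNA was taken at Day 3, Day 7 and 4 weeks. Each of the 6 groups held 2 libraries. The comparison of *Sox17*-*Erg* samples with control samples at each time asked how cultures given the factors that make induced endothelial cells (iECs) differ from control cultures of the same age. The labels named all 12 libraries as heart and gave the same endothelial growth medium, EGM2, for each. According to the methods, hearts of several newborn pups were pooled, PECAM1+ cells could be depleted, THY1+ cells were selected, and the genes were carried by pMX retroviruses. Neonatal cells came from *C57BL/6J* or *Tcf21*-CreERT2;*Rosa26*-tdTomato mice, and which of these gave the RNA was not stated. The control libraries carry the name PMX, which the labels do not explain further. Sorting of infected cells before RNA isolation was not stated, so a *Sox17*-*Erg* library may also hold uninfected cells.

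Library totals ran from 19011635 to 41240449 estimated counts. Levels are given as CPM, counts scaled to one common library total after TMM correction for composition, and a library with 0 counts allowed up to 3 counts, or 0.0752 to 0.152 CPM. *Sox17* was at 432 to 1040 CPM in the *Sox17*-*Erg* libraries and at 0.416 CPM or less in the controls, and *Erg* at 17.1 to 65.2 CPM against 2.27 CPM or less, as labelled. Fibroblast markers summed to 12500 to 41700 CPM over the 12 libraries. Fold changes are log2 values ± standard error from edgeR's quasi-likelihood test over 15506 genes, and a gene was called a differentially expressed gene (DEG) at an adjusted p under 0.05. The 2 libraries of a group were not stated to come from separate isolations, so p-values measure the spread between these samples, which may be technical.

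White fat cells form from fibroblast-like progenitors when PPARγ and C/EBPα switch on each other and the genes of lipid storage. The mature cell takes up fatty acids released by lipoprotein lipase, joins them to glycerol as triglyceride, and keeps them in one large droplet coated with perilipin 1. It secretes adiponectin, adipsin, resistin and leptin. Endothelial cells share part of this program, since CD36 and FABP4 carry fatty acids across the capillaries of heart and fat.

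RefSeq promoter windows on GRCm38.p6 were at hand for 24 of the 35 genes. The 250 bases before the transcription start of *Adipoq* (adiponectin), *Plin1* (perilipin 1), *Cidec* (a droplet fusion protein) and *Cd36* (a fatty acid transporter) are shown, because the first 3 moved together in the control samples and *Cd36* fell in the *Sox17*-*Erg* samples. *Cidec* had 2 starts, and both windows are shown. Each is printed 5′ to 3′, and capitals mark a match on either strand to the C/EBP motif TTGCNCAA or the nuclear receptor half-site AGGTCA. The 2 motifs do not overlap in these windows.
Adipoq, chr16:23146286-23146535, plus strand: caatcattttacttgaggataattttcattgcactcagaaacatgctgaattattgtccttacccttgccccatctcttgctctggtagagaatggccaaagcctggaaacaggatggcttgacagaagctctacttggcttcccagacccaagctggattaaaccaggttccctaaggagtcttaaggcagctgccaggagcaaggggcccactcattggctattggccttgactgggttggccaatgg
Plin1, chr7:79732777-79733026, minus strand: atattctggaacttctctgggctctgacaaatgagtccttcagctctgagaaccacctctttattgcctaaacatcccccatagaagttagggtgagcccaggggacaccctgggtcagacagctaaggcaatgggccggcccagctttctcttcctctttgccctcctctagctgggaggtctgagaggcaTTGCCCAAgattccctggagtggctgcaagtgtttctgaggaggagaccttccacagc
Cidec, upstream start, chr6:113435761-113436010, minus strand: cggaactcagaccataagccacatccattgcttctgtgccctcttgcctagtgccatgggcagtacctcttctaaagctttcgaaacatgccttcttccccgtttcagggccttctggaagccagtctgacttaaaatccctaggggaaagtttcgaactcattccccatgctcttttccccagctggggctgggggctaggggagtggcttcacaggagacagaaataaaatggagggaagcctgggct
Cidec, downstream start, chr6:113434765-113435014, minus strand: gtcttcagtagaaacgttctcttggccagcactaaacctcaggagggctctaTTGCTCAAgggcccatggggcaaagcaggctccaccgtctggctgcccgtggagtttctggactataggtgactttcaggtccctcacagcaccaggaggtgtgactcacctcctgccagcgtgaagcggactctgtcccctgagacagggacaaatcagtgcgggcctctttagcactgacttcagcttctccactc
Cd36, chr5:17835897-17836146, minus strand: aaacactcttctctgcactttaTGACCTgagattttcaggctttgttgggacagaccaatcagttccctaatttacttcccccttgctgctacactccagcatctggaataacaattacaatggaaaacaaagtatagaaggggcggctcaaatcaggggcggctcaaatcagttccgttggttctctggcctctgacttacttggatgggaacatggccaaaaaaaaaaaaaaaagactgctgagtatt
TTGCNCAA was present before *Plin1*, *Lep* and 1 of the *Cidec* starts, in 3 of the 31 windows that these 24 genes had and in 2.61% of all 32851 windows of this length. AGGTCA was present in 10 of the 31 windows, of 8 genes (*Pparg*, *Cd36*, *Aqp7*, *Acly*, *Elovl6*, *Gpam*, *Lpin1* and *Ucp1*), and in 14% of all windows. The *Adipoq* window and the window of the upstream *Cidec* start held neither. A match describes letters in the window and is not a bound site.

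In the *Sox17*-*Erg* samples none of the 31 genes was called higher than control at any time, and 19 were called lower at 1 or more times, where 14.6% of all genes were. At Day 3 only 2 were called lower, *Plin4* and *Slc2a4*, and 0 higher, where 5.13% and 7.19% of all genes were. At Day 7 16 were lower and 0 higher (all genes 7.93% and 9.48%), and at 4 weeks 16 were lower and 0 higher (11% and 11.9%). Of these, 15 were lower at both later times (6.15% of all genes). For the absence of higher calls, edgeR also gave 0 genes at an unadjusted p under 0.05 at each time, and DESeq2 called 0. With the replicate numbers as a block over all libraries 0 were higher, whereas with a block within each time point *Car3* was called higher at Day 3 (adjusted p = 0.03) and *Elovl6* at Day 7 (0.59, adjusted p = 0.044). *Fabp4* was called higher at Day 3 without the filter (0.82, adjusted p = 0.016) and in a fit of that time point alone (0.78, adjusted p = 0.044).

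Part of these counts depended on the filter on low counts. *Adipoq*, *Retn*, *Cfd*, *Plin1*, *Cidec*, *Thrsp* and *Car3* passed it only through control libraries, so they were tested only because of their control levels. All 7 were called lower at Day 7 and at 4 weeks, and 0 at Day 3. They make up 7 of the 19 genes lower at 1 or more times and 7 of the 15 lower at both later times. Their calls give no independent support, and their adjusted p-values are printed below as description only. Of the 24 genes that passed the filter in each arm on its own, the calls at the 3 times were 2, 9 and 9, all lower, and 22, 15 and 15 genes did not pass the test. Their median log2 fold changes were -0.32, -1.23 and -1.08, where the medians of all genes were 0.01, 0.006 and -0.014.

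Single libraries weighed on these counts. With replicate numbers as a block, 4 genes were called at Day 3, all lower (14.6% of all genes called), and with a block within each time point 7, of which 6 were lower (23.2%). The other was *Car3*, which held 5 counts over the *Sox17*-*Erg* libraries against 0 in control. The Day 3 count was 0 without control replicate 2 or *Sox17*-*Erg* replicate 1 of Day 3 (2.28% and 1.69% of all genes called in these fits, both directions together). It was 1 without control replicate 1 of Day 3 (2.34%) or either *Sox17*-*Erg* library of 4 weeks (8.84% and 8.93%), and 5 without either *Sox17*-*Erg* library of Day 7 (12.3% and 12%). The Day 7 count was 0 without *Sox17*-*Erg* replicate 1 of Day 7. In that fit 17 of the genes kept an unadjusted p under 0.05, all of them lower, and 5.69% of all genes were called in both directions. At 4 weeks it was 6 without *Sox17*-*Erg* replicate 1 of that time (10.5% of all genes) and 10 without replicate 2 (15.9%), so calls over all genes fell as well. No gene changed direction in any of these fits among those called. Over the 12 fits that left out a library, the 4 week calls of *Cebpa*, *Lpl* and *Pnpla2* were lost in 7, 6 and 4, and the Day 7 calls of *Gpd1*, *Gpam* and *Cidec* in 11, 5 and 4. All other calls at these 2 times were lost in 3 or fewer.

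**Figure D1:**
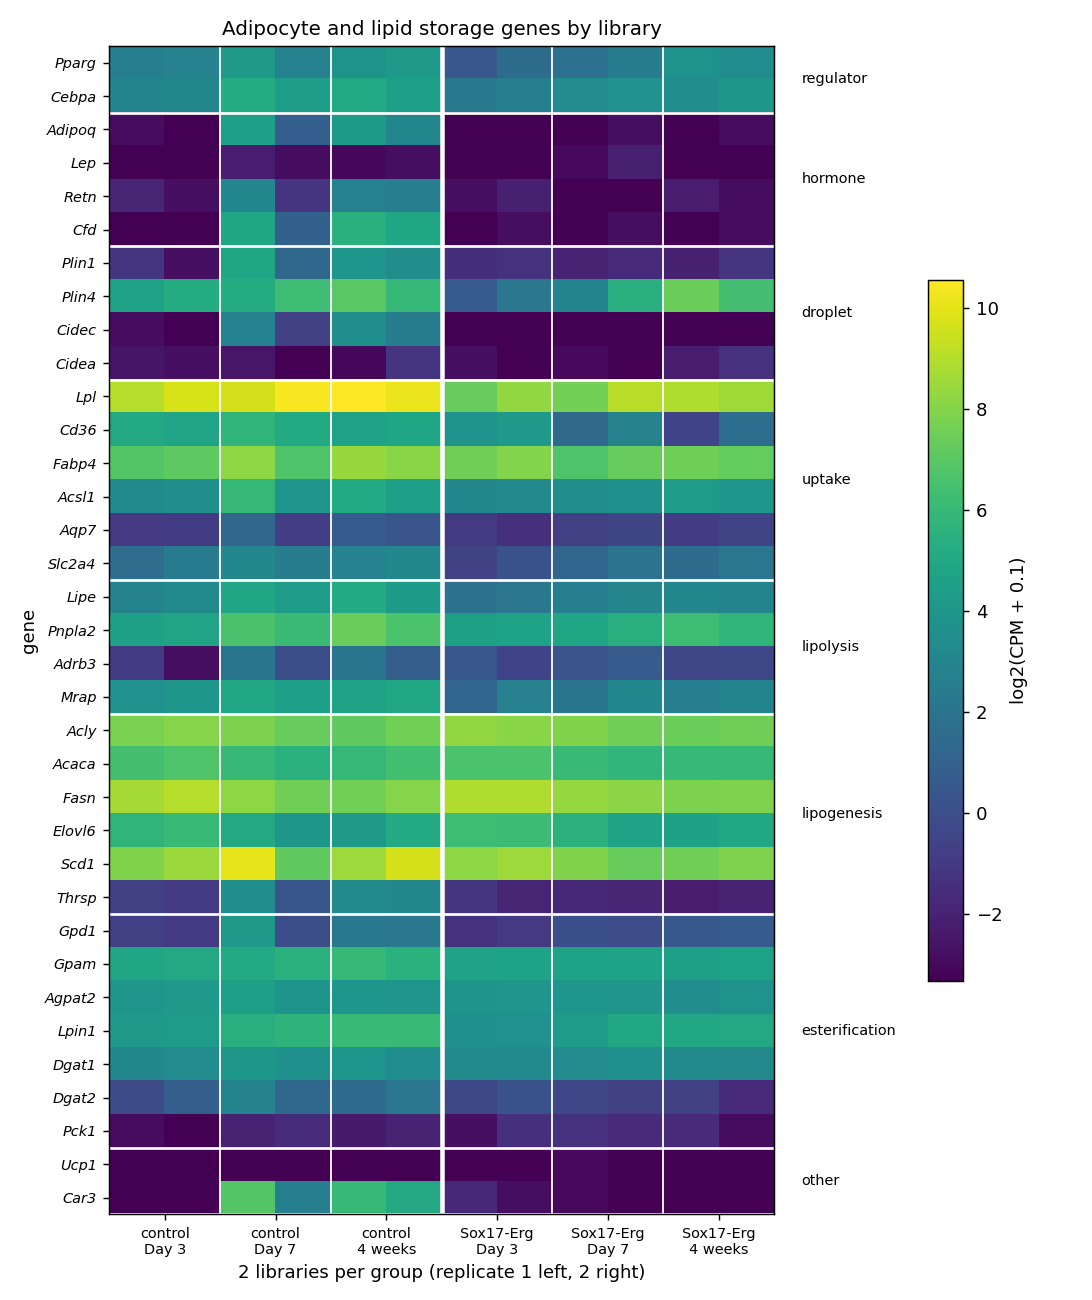
Heat map of the 35 genes (rows, grouped by role) in the 12 libraries (columns, 2 per group), colored by log2(CPM + 0.1). *Adipoq*, *Retn*, *Cfd*, *Plin1*, *Cidec*, *Thrsp* and *Car3* are dark in control samples at Day 3 and in all *Sox17*-*Erg* samples, and brighter in control samples at Day 7 and 4 weeks.

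Of the 4 secreted adipokines, 3 were lower in *Sox17*-*Erg* samples at the later times, each of which passed the filter only through control libraries. *Adipoq* (ENSMUSG00000022878, chr16:23146536-23158028 on GRCm38) encodes adiponectin, made almost only by fat cells. In the control samples it was at 0.0364 and 0 CPM at Day 3, 22.7 and 1.65 CPM at Day 7 and 18.9 and 8.26 CPM at 4 weeks. Of the 6 *Sox17*-*Erg* libraries 4 had 0 counts, and the others held at most 0.0439 CPM. The control libraries of Day 7 and 4 weeks all stood above the *Sox17*-*Erg* libraries, by a ratio of summed counts of 731 at Day 7 (95% counting interval 131 to 28900, adjusted p = 0.0099) and 821 at 4 weeks (147 to 32400, adjusted p = 0.0066). These intervals cover counting error only and leave out the spread between replicates. The Day 7 ratio of *Adipoq* without control replicate 1 was 97.3 (16.5 to 3930), without control replicate 2 it was 1340, and without *Sox17*-*Erg* replicate 1 it was 282. At 4 weeks the ratio was 456 without control replicate 1 and 401 without *Sox17*-*Erg* replicate 1. Without *Sox17*-*Erg* replicate 2 the lower group had 0 counts, which left bounds of at least 150-fold at Day 7 and 140-fold at 4 weeks.

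*Cfd* (chr10:79890853-79892655) encodes adipsin, the complement factor D of fat cells. It had 0 counts in both control libraries at Day 3, and was at 30.1 and 1.85 CPM at Day 7 and 45.5 and 29.1 CPM at 4 weeks. No *Sox17*-*Erg* library exceeded 0.0439 CPM, and none reached the lowest control library of the later times. The ratio of control to *Sox17*-*Erg* counts was 961 at Day 7 (172 to 38000, adjusted p = 0.0095) and 2170 at 4 weeks (389 to 85700, adjusted p = 0.0038). For *Cfd* the Day 7 ratio without control replicate 1 was 109 (18.6 to 4400), without control replicate 2 it was 1780, and without *Sox17*-*Erg* replicate 1 it was 371, or 1060 at 4 weeks. Without *Sox17*-*Erg* replicate 2 bounds of at least 197-fold and 370-fold were left. *Retn*, which encodes resistin, was at 0.182 and 0.0462 CPM in control samples at Day 3, 8.49 and 0.322 CPM at Day 7 and 6.77 and 6.1 CPM at 4 weeks. Its *Sox17*-*Erg* libraries lay between 0 and 0.129 CPM, below every control library of the later times. *Retn* was at least 88.5-fold lower at Day 7, where both *Sox17*-*Erg* libraries had 0 counts (adjusted p = 0.018, floor of 3 counts over the group), and lower by -6.39 ± 1.48 at 4 weeks (adjusted p = 0.017, or 0.099 at -7.28 without *Sox17*-*Erg* replicate 1). The Day 7 bound of *Retn* rested on control replicate 1, since it was 6.33-fold without that library. It was 167-fold without control replicate 2, and 34.1-fold and 54.4-fold without *Sox17*-*Erg* replicate 1 and 2. *Lep*, which encodes leptin, never exceeded 3 counts and 0.132 CPM in any library, so it was not detectable above the floor.

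Among the lipid droplet genes, *Plin1*, the coat protein of the fat cell droplet that guards it from lipases, was at 0.364 and 0.0462 CPM in control samples at Day 3. It was at 30.1 and 2.49 CPM at Day 7 and at 15.3 and 11.6 CPM at 4 weeks. The 6 *Sox17*-*Erg* libraries stayed between 0.142 and 0.333 CPM, in the range of the control libraries of Day 3 and below those of the later times. *Plin1* was lower in *Sox17*-*Erg* samples by -6.41 ± 1.19 at Day 7 (adjusted p = 0.0071) and -5.80 ± 1.15 at 4 weeks (adjusted p = 0.0068). The Day 7 value of *Plin1* was -3.72 without control replicate 1 (adjusted p = 0.012) and -7.29 without replicate 2, and its 4 week value was -6.55 without *Sox17*-*Erg* replicate 2. *Cidec*, which makes small droplets merge into one, had 0 counts in all 6 *Sox17*-*Erg* libraries. Its control libraries were at 0.0364 and 0 CPM at Day 3, 6.95 and 0.522 CPM at Day 7 and 12.1 and 5.61 CPM at 4 weeks. *Cidec* was at least 75-fold lower in *Sox17*-*Erg* samples at Day 7 (adjusted p = 0.032) and at least 177-fold lower at 4 weeks (adjusted p = 0.015). The Day 7 bound of *Cidec* was 10.3-fold without control replicate 1 and 137-fold without replicate 2, and 28.9-fold and 46.1-fold without *Sox17*-*Erg* replicate 1 and 2. Its Day 7 call was lost in 4 of the 12 fits that left out a library, namely either control library of Day 3 or either *Sox17*-*Erg* library of Day 7. The 4 week bound was 103-fold without control replicate 1, and 86.5-fold and 90.5-fold without *Sox17*-*Erg* replicate 1 and 2, the libraries without which that call was lost. *Cidea*, its relative in brown fat, had 8 counts or fewer in every library and was not tested.

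*Plin4*, a perilipin of nascent droplets that muscle and fat share, was present in both arms at every time. In control samples it was at 25.9 and 38.5 CPM at Day 3, 38.9 and 77.1 CPM at Day 7 and 127 and 59.6 CPM at 4 weeks. In *Sox17*-*Erg* samples it was at 1.47 and 4.48 CPM, then 7.53 and 40.9 CPM, then 172 and 85.3 CPM. The arms were apart at Day 3 and overlapped at Day 7 and 4 weeks. *Plin4* was lower by -3.41 ± 0.88 at Day 3 (adjusted p = 0.038), a call that was lost in 6 of 12 fits that left out a library. Without *Sox17*-*Erg* replicate 2 of Day 3 the value of *Plin4* was -4.45. At 4 weeks the difference was 0.46 ± 0.74 (adjusted p = 0.70). With a block within each time point the Day 7 difference of *Plin4* also passed the test (-1.61, adjusted p = 0.014).

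*Car3*, a carbonic anhydrase that is abundant in fat cells and slow muscle, and *Thrsp*, a nuclear protein of fat cells that promotes lipogenesis, also passed the filter only through control libraries. *Car3* had 0 counts in control samples at Day 3, and was at 115 and 6.23 CPM at Day 7 and 62.3 and 33.4 CPM at 4 weeks. No *Sox17*-*Erg* library exceeded 0.202 CPM. *Car3* was at least 945-fold lower in *Sox17*-*Erg* samples at 4 weeks (adjusted p = 0.0089), and at Day 7 the ratio was 3640 (653 to 144000, adjusted p = 0.011). Of *Car3* the Day 7 ratio without control replicate 1 was 368 (65 to 14600), without control replicate 2 it was 6760, and without *Sox17*-*Erg* replicate 2 it was 2240. Without *Sox17*-*Erg* replicate 1 it was a bound of at least 468-fold. The 4 week bound was 616-fold without control replicate 1, and 462-fold and 483-fold without *Sox17*-*Erg* replicate 1 and 2. *Thrsp* was at 0.509 and 0.416 CPM in control samples at Day 3, 11.1 and 1.21 CPM at Day 7 and 10 and 8.5 CPM at 4 weeks, against 0.106 to 0.354 CPM in the *Sox17*-*Erg* libraries. It was lower by -5.01 ± 0.95 at Day 7 (adjusted p = 0.0077) and by -6.14 ± 1.01 at 4 weeks (adjusted p = 0.0027). At Day 7 *Thrsp* was at -2.70 without control replicate 1 (adjusted p = 0.0089) and at -5.86 without replicate 2. *Ucp1*, the uncoupling protein of brown fat, had 1 count in 1 library and 0 in the other 11.

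**Figure D2:**
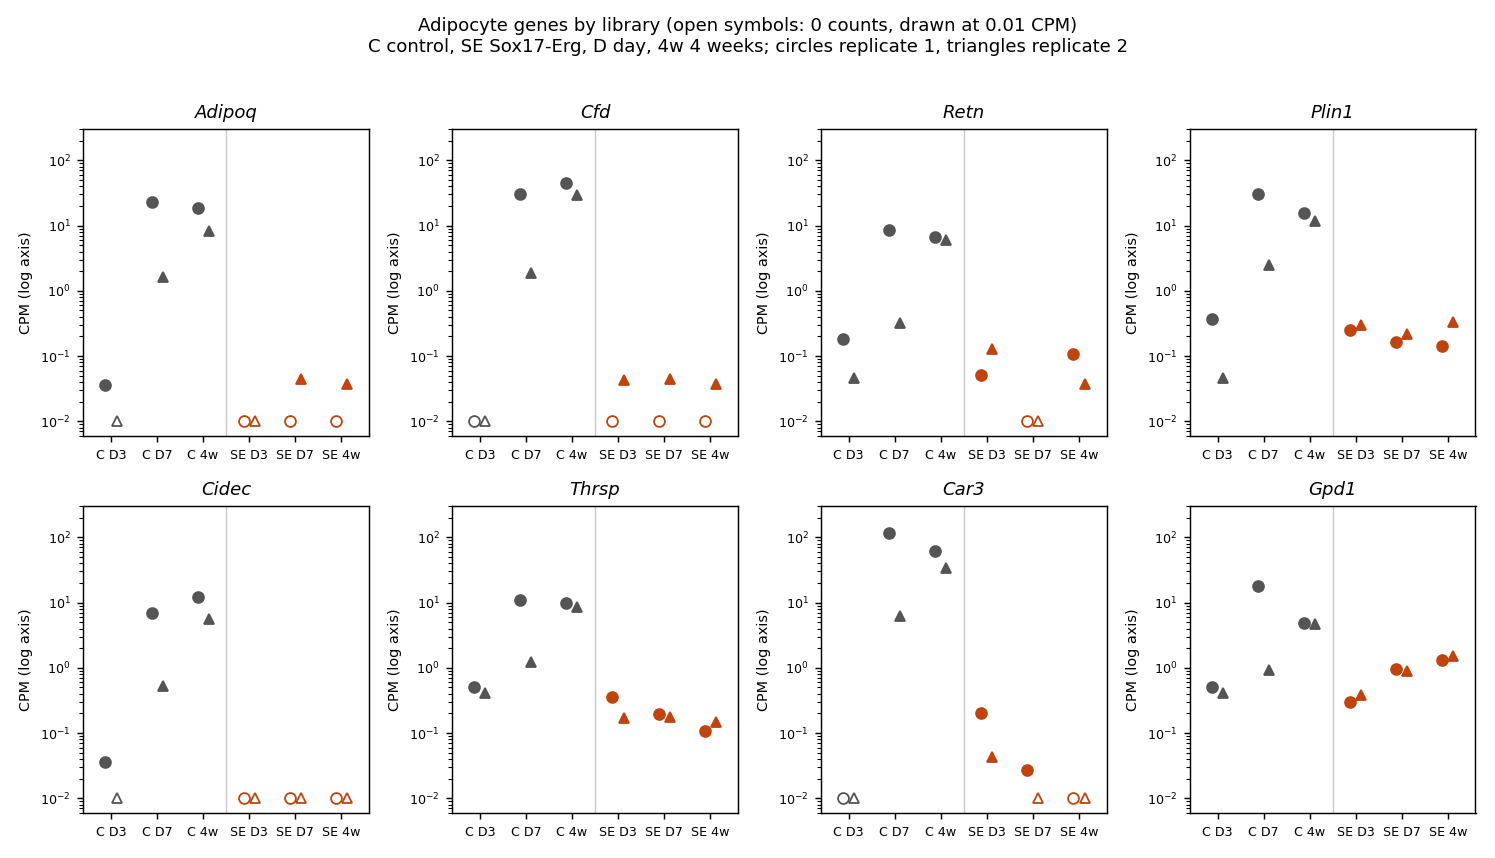
Level in CPM (log axis) of 8 genes in each library, gray for control and orange for *Sox17*-*Erg* samples, circles for replicate 1 and triangles for replicate 2, with libraries of 0 counts drawn open at 0.01 CPM. In control samples at Day 7 replicate 1 stood far above replicate 2 for every gene shown, as for *Adipoq* at 22.7 and 1.65 CPM.

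The 2 control libraries of Day 7 were unlike each other in these genes. Replicate 1 exceeded replicate 2 more than 5-fold in 9 of the 31 genes, and in 0.325% of the 14754 genes with enough counts for the ratio. In the control samples of Day 3 and 4 weeks the same was seen in 0 of the genes that could be compared. The summed level of 6 adipocyte markers (*Adipoq*, *Plin1*, *Cidec*, *Lep*, *Retn* and *Cfd*) was 98.4 and 6.87 CPM in the control libraries of Day 7. Without replicate 1, 11 genes were called lower in *Sox17*-*Erg* samples at Day 7 (12.3% of all genes called in both directions). Of these 7 were the genes that had passed the filter only through control libraries. The other 4 were *Cd36* (adjusted p = 0.031), *Lipe* (adjusted p = 0.031), *Gpam* (adjusted p = 0.02) and *Lpin1* (adjusted p = 0.029). *Gpd1*, the glycerol 3-phosphate dehydrogenase that links glycolysis to triglyceride synthesis, was then not called. *Gpd1* was lower by -3.36 ± 0.99 at Day 7 (adjusted p = 0.047), with control libraries at 18.1 and 0.924 CPM and *Sox17*-*Erg* libraries at 0.965 and 0.879 CPM. Without control replicate 1 the *Gpd1* difference was -0.03 (adjusted p = 0.99), without replicate 2 it was -4.29, and with the replicate number as a block the adjusted p was 0.066.

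Fat cells were not identified other than by transcripts. In these bulk samples fewer fat cells, less of a transcript per fat cell and a change in other cells that express the gene cannot be told apart.

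The regulators themselves were expressed in both arms. *Pparg* (chr6:115360951-115490399), the nuclear receptor that drives fat cell formation, was at 6.33 and 7.07 CPM in control samples at Day 3, 17.4 and 6.75 CPM at Day 7 and 13.9 and 17.2 CPM at 4 weeks. In *Sox17*-*Erg* samples it was at 1.27 and 2.93 CPM, 3.28 and 5.49 CPM, and 13.3 and 10.5 CPM. Every *Sox17*-*Erg* library was below both control libraries of its time. The differences of *Pparg* were -1.66 ± 0.50 at Day 3 (adjusted p = 0.062), -1.47 ± 0.48 at Day 7 (adjusted p = 0.063) and -0.38 ± 0.46 at 4 weeks (adjusted p = 0.60), none of which passed the test. DESeq2 called the Day 3 difference (adjusted p = 0.0074). *Cebpa*, which encodes C/EBPα, was at 39.1 and 21 CPM in control and 10.4 and 13 CPM in *Sox17*-*Erg* samples at Day 7, without overlap. It was lower by -1.36 ± 0.33 at Day 7 (adjusted p = 0.021) and by -1.09 ± 0.32 at 4 weeks (adjusted p = 0.040), the latter at an adjusted p of 0.052 with a block within each time point.

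Of the 6 genes of lipid and glucose uptake, 3 were lower at 1 or more times. *Cd36* (chr5:17781690-17888801), the fatty acid transporter and thrombospondin receptor, was at 34.3 and 27.4 CPM in control samples at Day 3, 53.2 and 35.2 CPM at Day 7 and 25.9 and 30.1 CPM at 4 weeks. In *Sox17*-*Erg* samples it was at 13.3 and 18.1 CPM, 2.73 and 7.29 CPM, and 0.602 and 3.15 CPM. The arms did not overlap at any time. *Cd36* was lower by -3.17 ± 0.61 at Day 7 (adjusted p = 0.0079) and by -3.90 ± 0.65 at 4 weeks (adjusted p = 0.0029). Leaving out *Sox17*-*Erg* replicate 2 gave -4.06 at Day 7 and -5.55 at 4 weeks for *Cd36*, and leaving out replicate 1 gave -3.16 at 4 weeks. The Day 3 difference was -0.98 ± 0.56 (adjusted p = 0.27). Unlike the 7 genes above, *Cd36* was not near 0 in control samples at Day 3.

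*Lpl*, the lipase that frees fatty acids from circulating lipoproteins, was abundant in both arms. It was at 518 and 854 CPM, 799 and 1400 CPM, and 1510 and 1140 CPM in control samples, and at 162 and 319 CPM, 203 and 546 CPM, and 472 and 389 CPM in *Sox17*-*Erg* samples. All *Sox17*-*Erg* libraries were below the controls of their time. Differences in *Lpl* were of like size at the 3 times, -1.51 ± 0.51 (adjusted p = 0.082), -1.56 ± 0.51 (adjusted p = 0.065) and -1.62 ± 0.51 (adjusted p = 0.048), and only the last passed. With a block within each time point *Lpl* was lower at Day 3 and Day 7 as well (adjusted p = 0.0025 and 0.001).

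*Fabp4*, the fatty acid carrier of fat cells, macrophages and capillary endothelium, was at 115 and 140 CPM, 292 and 108 CPM, and 348 and 274 CPM in control samples. In *Sox17*-*Erg* samples it was at 190 and 257 CPM, 107 and 159 CPM, and 178 and 156 CPM. The *Sox17*-*Erg* libraries lay above the controls at Day 3, overlapped with them at Day 7 and lay below them at 4 weeks. None of the *Fabp4* differences passed the test, with 0.81 ± 0.40 at Day 3 (adjusted p = 0.21) and -0.90 ± 0.40 at 4 weeks (adjusted p = 0.14). *Slc2a4*, which encodes the insulin-responsive glucose transporter GLUT4, was lower at Day 3 by -2.30 ± 0.45 (adjusted p = 0.014). At Day 3 it was at 3.06 and 4.95 CPM in control and 0.557 and 1.03 CPM in *Sox17*-*Erg* samples. Later differences of *Slc2a4* were -1.23 ± 0.40 (adjusted p = 0.062, and 0.029 with a block within each time point) and -1.17 ± 0.39 (adjusted p = 0.060). *Acsl1*, which activates fatty acids, and *Aqp7*, the glycerol channel of fat cells, were not called at any time.

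Of the 4 genes of fat breakdown, 3 were lower at the later times. *Lipe*, which encodes hormone-sensitive lipase, was at 29.3 and 20.6 CPM in control and 6.2 and 7.95 CPM in *Sox17*-*Erg* samples at Day 7, and at 36.2 and 18.7 CPM against 8.64 and 7.52 CPM at 4 weeks. It was lower by -1.82 ± 0.33 (adjusted p = 0.0063) and -1.77 ± 0.33 (adjusted p = 0.0049). At Day 3 *Lipe* was at 7.2 and 9.99 CPM in control and 3.54 and 4.52 CPM in *Sox17*-*Erg* samples. It was not called there, though edgeR gave an unadjusted p under 0.05. *Pnpla2*, which encodes the first triglyceride lipase of the pathway, ATGL, was level with control at Day 3 within the replicate spread, with 24.3 and 27.4 CPM in control and 23.2 and 26.6 CPM in *Sox17*-*Erg* samples. It was lower by -1.21 ± 0.30 at Day 7 (adjusted p = 0.024) and -1.06 ± 0.29 at 4 weeks (adjusted p = 0.030), when both arms stood above their Day 3 levels. *Mrap*, the accessory protein of the ACTH receptor, which fat cells use for lipolysis, was lower by -2.08 ± 0.47 at Day 7 (adjusted p = 0.017) and -2.10 ± 0.47 at 4 weeks (adjusted p = 0.012), with -2.78 at Day 7 without *Sox17*-*Erg* replicate 2. It was at 22.8 to 32.2 CPM in the 4 control libraries and 4.05 to 8.83 CPM in the 4 *Sox17*-*Erg* libraries of those times. At Day 3 *Mrap* was at 12.7 and 16 CPM in control and 2.23 and 6.59 CPM in *Sox17*-*Erg* samples. It too was not called there, at an unadjusted p under 0.05 in edgeR. *Adrb3*, the β3-adrenergic receptor of fat cells, did not exceed 4.16 CPM and was not called, and 839 of its exon bases overlap a gene on the opposite strand.

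Of the 6 genes of fatty acid synthesis, *Thrsp* was described above. *Acly*, *Acaca*, *Fasn* and *Elovl6*, which turn citrate into long-chain fatty acids, and *Scd1*, which desaturates them, were called in neither direction at any of the 3 times. *Fasn*, the fatty acid synthase, was at 409 and 525 CPM in control and 472 and 471 CPM in *Sox17*-*Erg* samples at Day 3, and at 193 and 258 CPM against 225 and 235 CPM at 4 weeks. The arms overlapped at both times, and the difference of *Fasn* at 4 weeks was 0.03 ± 0.23. *Acly* and *Acaca* differed by 0.31 or less in log2 size at each time, with standard errors of 0.18 to 0.21. *Elovl6* differed by 0.58 ± 0.41 at Day 7 (adjusted p = 0.37), a value that passed with a block within each time point (adjusted p = 0.044). *Scd1* was uneven between control replicates, at 1040 and 145 CPM at Day 7 and 363 and 827 CPM at 4 weeks, and its difference of -1.50 ± 0.74 at 4 weeks did not pass (adjusted p = 0.18).

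**Figure D3:**
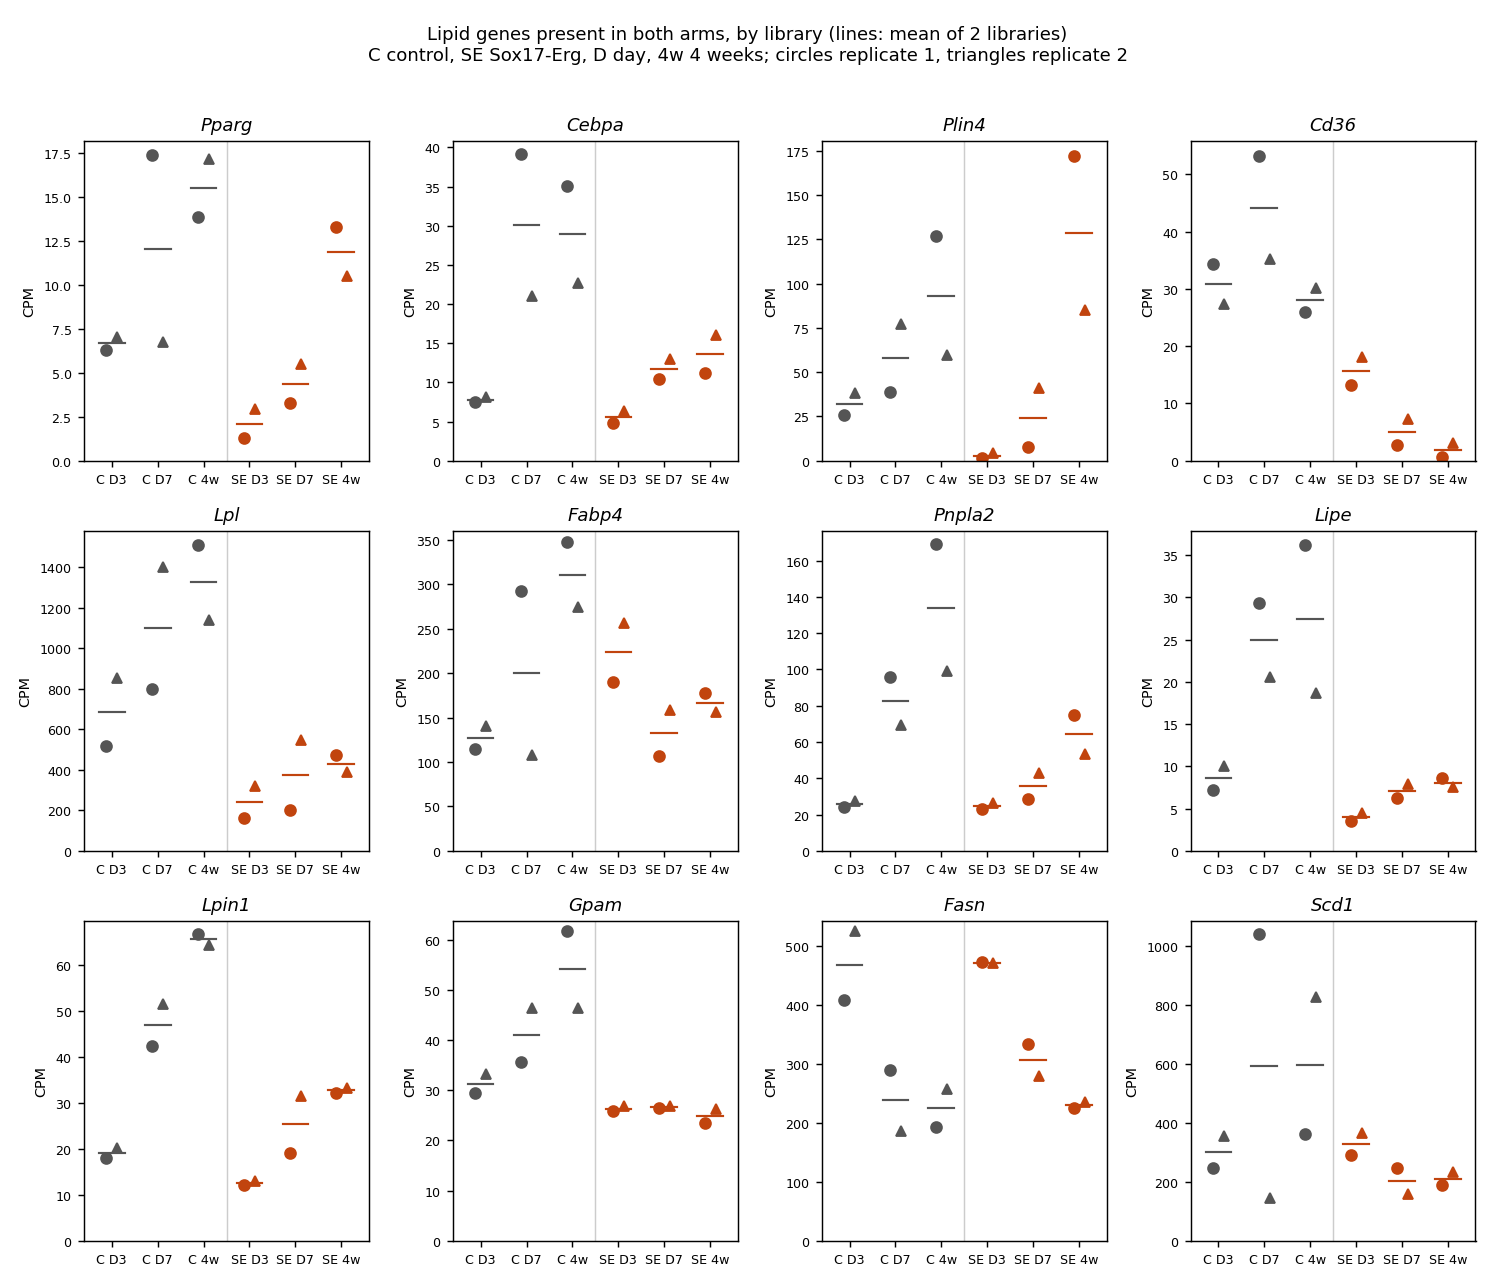
Level in CPM (linear axis from 0) of 12 genes in each library, gray for control and orange for *Sox17*-*Erg* samples, circles for replicate 1, triangles for replicate 2 and lines for the mean of 2 libraries. *Cd36* falls in the *Sox17*-*Erg* samples from 13.3 and 18.1 CPM at Day 3 to 0.602 and 3.15 CPM at 4 weeks, *Plin4* reaches 172 and 85.3 CPM there, and *Fasn* falls in both arms.

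Of the triglyceride synthesis enzymes, *Gpam*, which places the first fatty acid on glycerol 3-phosphate, was at 35.6 and 46.5 CPM in control and 26.5 and 26.8 CPM in *Sox17*-*Erg* samples on Day 7. Its later levels were 61.8 and 46.4 CPM against 23.4 and 26.3 CPM at 4 weeks, and the arms did not overlap at these 2 times. *Gpam* was lower by -0.63 ± 0.17 (adjusted p = 0.033) and -1.12 ± 0.17 (adjusted p = 0.0018), and at 4 weeks *Gpam*, *Cd36* and *Lipe* were the genes among the 24 that passed the filter in each arm called in each of the 12 fits that left out a library. *Lpin1*, a phosphatidate phosphatase, was lower by -0.89 ± 0.21 at Day 7 (adjusted p = 0.018) and -1.0 ± 0.20 at 4 weeks (adjusted p = 0.0076). At Day 3 *Lpin1* was at 18 and 20.3 CPM in control and 12.2 and 13 CPM in *Sox17*-*Erg* samples and was not called. *Dgat2*, which adds the last fatty acid, was low in both arms, at 7.18 and 2.49 CPM in control and 0.662 and 0.527 CPM in *Sox17*-*Erg* samples at Day 7. It was lower by -3.00 ± 0.62 at Day 7 (adjusted p = 0.012) and -3.22 ± 0.65 at 4 weeks (adjusted p = 0.0074). The Day 7 call of *Dgat2* was lost without control replicate 1 (-2.07, adjusted p = 0.058), and its 4 week value was -3.98 without *Sox17*-*Erg* replicate 1. *Dgat1*, the other enzyme of this step, and *Agpat2*, which places the second fatty acid, were not called, with differences of -0.50 ± 0.21 and -0.34 ± 0.21 at 4 weeks. *Pck1*, which supplies glycerol 3-phosphate in fat cells without glucose, had 11 counts or fewer in every library.

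**Figure D4:**
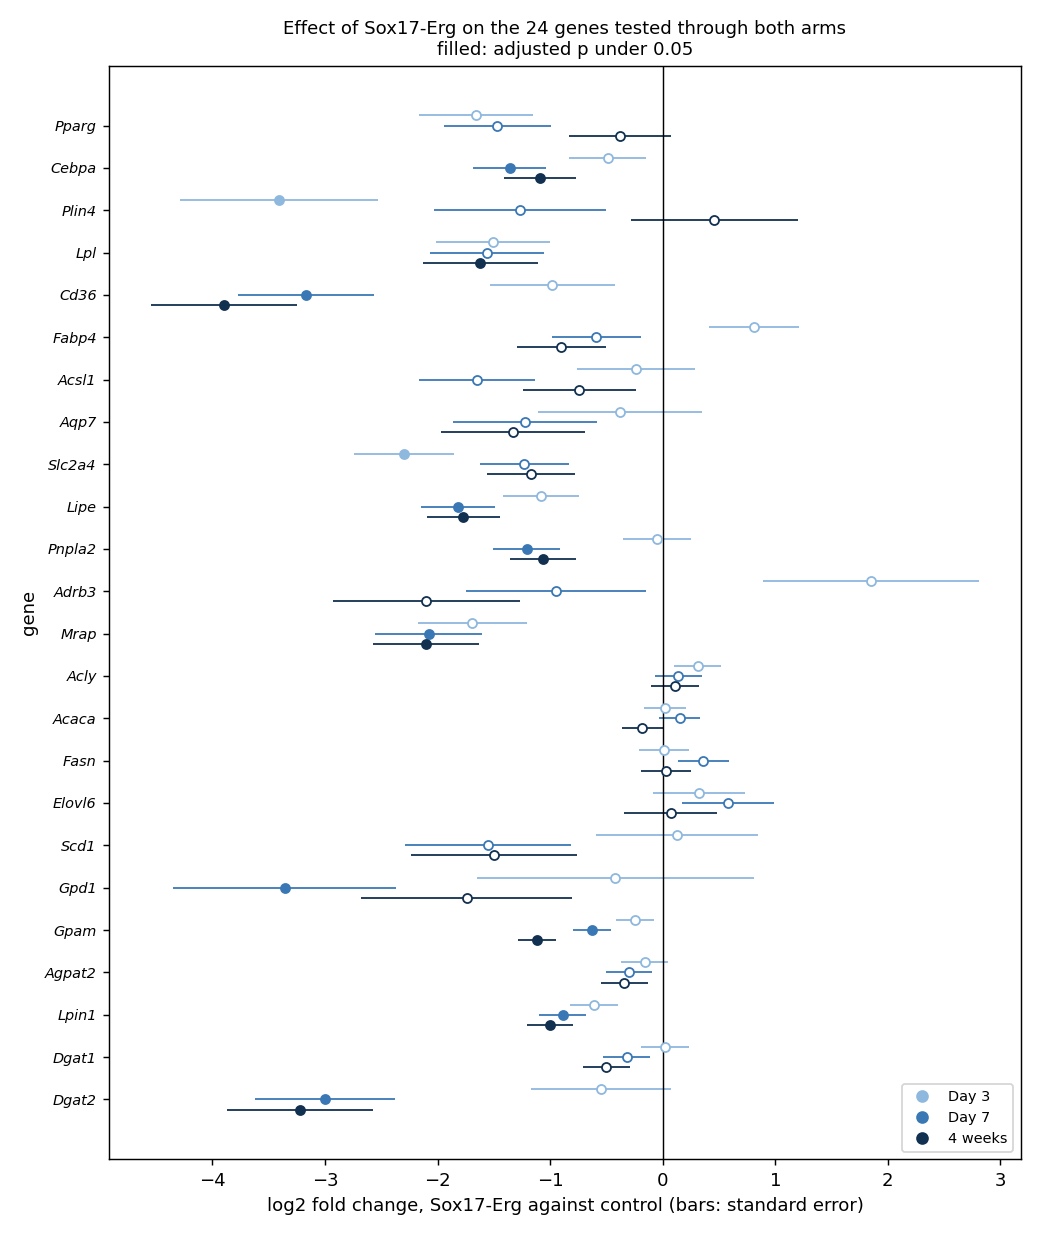
Log2 fold change ± standard error of *Sox17*-*Erg* against control samples (x axis) for the 24 genes that passed the filter in each arm on its own, at Day 3, Day 7 and 4 weeks (light to dark). Filled points passed the test at an adjusted p under 0.05, and *Cd36* is the lowest at 4 weeks with -3.90 ± 0.65, whereas *Acly*, *Acaca*, *Fasn* and *Elovl6* lie within 0.58 of 0.

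In the control samples 10 of the 31 genes rose between Day 3 and Day 7 and 2 fell (all genes 4.7% and 4.06%). Of the 24 genes that passed the filter in each arm, 5 rose and 2 fell, and the other 5 that rose had passed only through control libraries. *Cfd* was at least 267-fold and *Car3* at least 1010-fold higher at Day 7 than at Day 3, where both had 0 counts. Without control replicate 1 of Day 7 these bounds were 30.3-fold and 102-fold, without replicate 2 492-fold and 1880-fold, without control replicate 1 of Day 3 117-fold and 444-fold, and without its replicate 2 149-fold and 565-fold. *Adipoq* (adjusted p = 0.022), *Plin1* (6.19 ± 1.18, adjusted p = 0.018) and *Cebpa* (1.94 ± 0.34, adjusted p = 0.013) rose as well. Among *Cfd*, *Car3*, *Adipoq*, *Plin1* and *Cebpa*, only *Cebpa* had passed the filter in each arm. The *Plin1* value was 3.51 without control replicate 1 of Day 7, 7.08 without its replicate 2, 8.33 without replicate 1 of Day 3 and 5.49 without replicate 2 of Day 3, and the last 2 lost the call (adjusted p = 0.10 and 0.12). *Acaca* and *Fasn* were the genes that fell, by -0.83 ± 0.19 (adjusted p = 0.030) and -0.97 ± 0.23 (adjusted p = 0.034). Without control replicate 1 or replicate 2 of Day 3 the count was 0, with 0.708% and 0.564% of all genes called and 17 and 19 of the 31 genes at an unadjusted p under 0.05.

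From Day 7 to 4 weeks 0 genes rose or fell in the control samples (all genes 0.174% and 0.219%). In that step edgeR gave 3 genes higher and 0 lower at an unadjusted p under 0.05, and DESeq2 called 0. From Day 3 to 4 weeks 15 genes rose and 1 fell (all genes 13.9% and 12.6%). The 15 were the 7 fat cell genes together with *Cebpa*, *Fabp4*, *Lipe*, *Pnpla2*, *Adrb3*, *Gpd1*, *Gpam* and *Lpin1*, and *Fasn* fell. The 7 had passed the filter only through control libraries, so 8 of the 24 genes that passed it in each arm rose. *Pnpla2* rose by 2.38 ± 0.31 (adjusted p = 0.0012) and *Fabp4* by 1.29 ± 0.40 (adjusted p = 0.042, and 0.052 with the replicate block). Without control replicate 1 or 2 of Day 3 the count of calls was 7 (11.1% and 11.7% of all genes, both directions together), and without control replicate 1 of 4 weeks it was 9 (11%).

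In the *Sox17*-*Erg* samples, from Day 3 to Day 7 only *Lpin1* was called, higher by 1.01 ± 0.21 (adjusted p = 0.040), with 1 gene higher and 0 lower (all genes 2.04% and 1.38%). For the lower direction edgeR gave 4 genes at an unadjusted p under 0.05 and DESeq2 called 2. That call was lost in 9 of the 12 fits that left out a library, while 2 genes were called without control replicate 2 of Day 7 and 3 without *Sox17*-*Erg* replicate 1 of Day 7 (3.18% and 3.91% of all genes). From Day 7 to 4 weeks 0 genes were called (all genes 1.15% and 0.671%), where edgeR gave 3 higher and 0 lower at an unadjusted p under 0.05 and DESeq2 called 1, *Pparg* (adjusted p = 0.036).

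From Day 3 to 4 weeks 6 genes rose and 5 fell in the *Sox17*-*Erg* samples (all genes 15.1% and 15.6%). Both counts were near the shares over all genes, so they are no trait of this set. *Plin4* rose by 5.41 ± 0.94 (adjusted p = 0.0037), *Pparg* by 2.49 ± 0.51 (adjusted p = 0.0073), *Slc2a4* by 2.13 ± 0.44 (adjusted p = 0.0080) and *Cebpa* by 1.29 ± 0.34 (adjusted p = 0.020), with *Pnpla2* and *Lpin1*. Without replicate 2 of Day 3 *Plin4* was at 6.46 and *Pparg* at 3.24. *Cd36* changed by -3.07 ± 0.64 (adjusted p = 0.0080, with -2.27 and -4.69 without replicate 1 and 2 of 4 weeks), and *Acly*, *Acaca*, *Fasn* and *Elovl6* also fell. *Fasn* fell by about the same amount in both arms, -1.03 ± 0.23 in *Sox17*-*Erg* samples (adjusted p = 0.0097) and -1.05 ± 0.23 in control samples (adjusted p = 0.010). *Cebpa*, *Pnpla2* and *Lpin1* rose in both arms. The 7 fat cell genes did not pass in the *Sox17*-*Erg* samples, where they were at or near the floor at each time. The count of 11 fell to 3 without *Sox17*-*Erg* replicate 1 of Day 3 (13.2% of all genes called in both directions), 6 without *Sox17*-*Erg* replicate 1 of 4 weeks (13.6%), and 7 without replicate 2 of Day 3 (18.4%) or of 4 weeks (20.2%).

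Whether the effect of *Sox17*-*Erg* itself changed from Day 3 to 4 weeks was tested as a difference of differences, and 0 of the 31 genes passed in either direction (all genes 2.22% higher and 0.987% lower). At an unadjusted p under 0.05 edgeR gave 1 gene higher, *Plin4*, and 8 lower, and DESeq2 called 1 higher and 9 lower. *Plin4* had the value 3.87 ± 1.15 (adjusted p = 0.12) and *Cd36* -2.93 ± 0.83 (adjusted p = 0.11). Without control replicate 1 or 2 of Day 7 5 genes passed, all lower (2.96% and 2.97% of all genes, both directions together), and 1 passed without replicate 2 of the *Sox17*-*Erg* samples at Day 7 (2.97%) or at 4 weeks (1.75%).

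Other regulators of fat cell formation were read from a list of 16, all tested. Over all genes 7.19%, 9.48% and 11.9% were higher at Day 3, Day 7 and 4 weeks and 5.13%, 7.93% and 11% lower, and the lists are set beside these shares. At Day 3, Day 7 and 4 weeks 1, 1 and 3 of them were higher in *Sox17*-*Erg* samples (6.25%, 6.25% and 18.8%) and 4, 6 and 7 lower (25%, 37.5% and 43.8%), with medians of -0.61, -0.60 and -0.76. *Klf5*, an early adipogenic factor that is also active in vascular cells, was higher at each time (3.23 ± 0.38, 4.22 ± 0.40 and 3.05 ± 0.38). It was at 1.97 to 5.28 CPM in the control libraries and 21.8 to 51.8 CPM in the *Sox17*-*Erg* libraries. *Mlxipl*, the carbohydrate response factor ChREBP of fat and liver, was lower at Day 7 (-4.73 ± 0.67, adjusted p = 0.0019) and 4 weeks (-4.29 ± 0.63, adjusted p = 0.0015). *Klf15*, which raises GLUT4, was lower at each time (-1.95 ± 0.36, -1.50 ± 0.35 and -1.32 ± 0.35).

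Of 10 tested inhibitors of adipogenesis, 2, 1 and 2 were higher (20%, 10% and 20%) and 1, 2 and 2 lower (10%, 20% and 20%). *Sox9*, a transcription factor that holds preadipocytes undifferentiated, was lower at Day 3 (-2.06 ± 0.48) and 4 weeks (-2.01 ± 0.49), and *Foxo1* was higher at each time (0.74 ± 0.18, 0.94 ± 0.17 and 1.74 ± 0.18). *Dlk1*, the preadipocyte factor, was lower at Day 7 (-3.80 ± 0.71, adjusted p = 0.0072), and the corepressor *Runx1t1* at Day 7 (-1.16 ± 0.32) and 4 weeks (-1.48 ± 0.33). Of 33 further lipid handling genes 2, 3 and 2 were higher, which at 6.06%, 9.09% and 6.06% was no more than over all genes. In this list 4, 6 and 4 were lower (12.1%, 18.2% and 12.1%), with medians of 0.03, 0.01 and -0.05. *Cav1*, the caveolin of fat and endothelial cells, was higher at each time (1.97 ± 0.35, 2.68 ± 0.35 and 2.30 ± 0.35). *G0s2*, an inhibitor of the lipase ATGL, was lower at Day 3 (-2.56 ± 0.62), and *Acacb*, the mitochondrial acetyl-CoA carboxylase, was lower at Day 7 (-2.71 ± 0.38) and 4 weeks (-2.29 ± 0.38). Of 19 fatty acid oxidation genes none was higher, with 0, 0 and 1 at an unadjusted p under 0.05 in edgeR and 0 called by DESeq2, and 1, 2 and 5 were lower (5.26%, 10.5% and 26.3%), with medians of -0.10, -0.23 and -0.33. *Acaa2*, a thiolase, was lower at Day 7 (-2.35 ± 0.34) and 4 weeks (-2.29 ± 0.34), *Ppara*, the nuclear receptor of fatty acid oxidation, at 4 weeks (-1.49 ± 0.46), and *Hadh*, a dehydrogenase of the pathway, at each time (-0.45 ± 0.11, -0.72 ± 0.11 and -0.64 ± 0.11).

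Markers of other cells moved along with these genes in part, where 7.19%, 9.48% and 11.9% of all genes were higher at the 3 times and 5.13%, 7.93% and 11% lower. The 6 adipocyte markers summed to 60.7 to 98.5 CPM in control samples at 4 weeks and to 0.193 to 0.474 CPM over the 6 *Sox17*-*Erg* libraries, with *Lep* at or near 0 throughout. Of 8 mesothelial markers 0 were higher and 2, 5 and 7 were lower in *Sox17*-*Erg* samples at the 3 times, with sums of 944 to 1490 CPM in control and 169 to 268 CPM in *Sox17*-*Erg* samples at 4 weeks. Of 9 markers of adipose progenitors 0, 3 and 2 were higher and 1, 3 and 4 lower. *Cd34* was lower at each time (-2.58 ± 0.39, -1.90 ± 0.37 and -1.53 ± 0.37). *Pi16* was higher at Day 7 (3.03 ± 0.36) and 4 weeks (4.51 ± 0.37), as was *Cd9* (1.22 ± 0.16 and 3.34 ± 0.18), and *Dpp4* was higher at Day 7 (2.57 ± 0.62). For the 0 progenitor markers higher at Day 3, edgeR gave 1 at an unadjusted p under 0.05 and DESeq2 called 1. Their sum was 2710 to 2830 CPM in control and 1320 to 1380 CPM in *Sox17*-*Erg* samples at 4 weeks.

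Of 10 macrophage markers none was called at any time, with 0 at an unadjusted p under 0.05 in edgeR and 0 called by DESeq2. Their sum was 1040 and 1470 CPM in control samples at Day 7, so replicate 2, the library with fewer adipocyte markers, held more of them. At 4 weeks it was 51.6 and 475 CPM in control and 81.3 and 394 CPM in *Sox17*-*Erg* samples. Of 10 endothelial markers 5, 6 and 7 were higher and 0 lower, with sums of 163 to 390 CPM over the control libraries and 427 to 909 CPM over the *Sox17*-*Erg* libraries. Of 10 fibroblast markers 0, 1 and 1 were higher and 1, 4 and 5 lower. Of 10 cardiomyocyte markers 2, 4 and 7 were lower and 0 higher, and of 7 tested mural markers 2, 4 and 4 were higher and 0, 0 and 2 lower. Where these marker counts were 0, edgeR gave at most 1 marker at an unadjusted p under 0.05 and DESeq2 called at most 1. The part of these cells in the changes above was not tested.

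**Figure D5:**
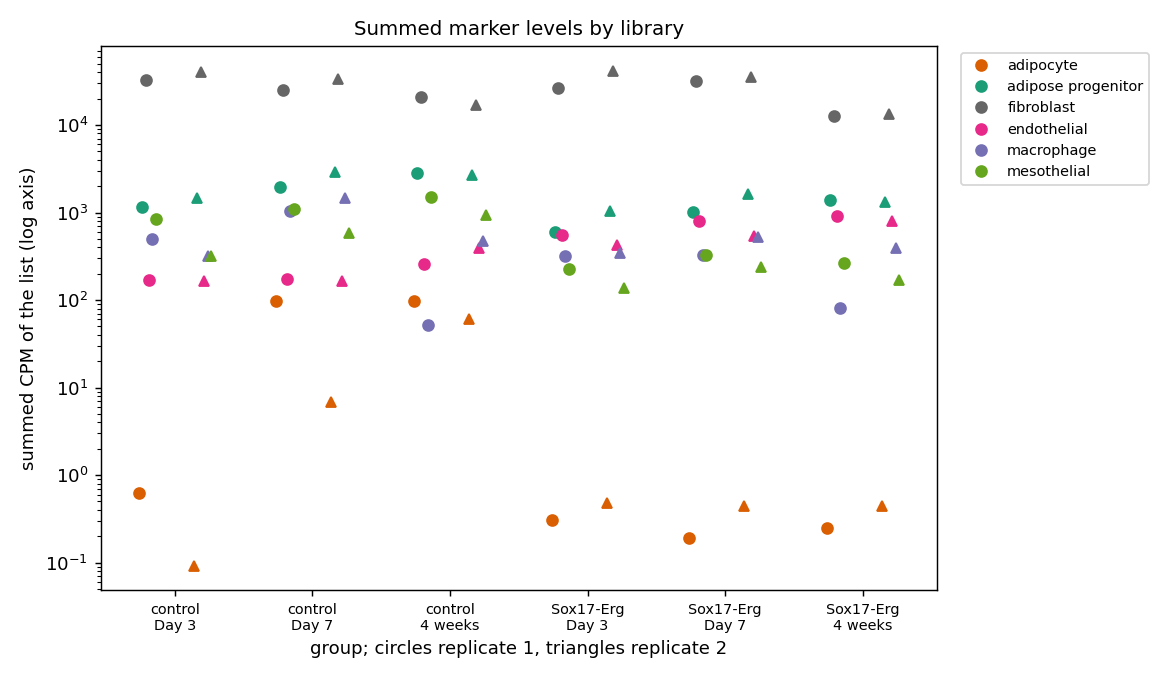
Summed CPM (log axis) of the markers of 6 cell types in each library, circles for replicate 1 and triangles for replicate 2. Adipocyte markers rise in control samples from at most 0.619 CPM at Day 3 to 60.7 and 98.5 CPM at 4 weeks and stay at or below 0.474 CPM in all *Sox17*-*Erg* samples, where endothelial markers are at 427 to 909 CPM.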

How the data were processed

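The authors isolated RNA with TRIzol, made stranded mRNA libraries, sequenced paired ends, trimmed high GC content with BBDuk and quantified transcripts with Salmon. The estimated counts they deposited were whole numbers for each gene, without scaling for depth. The submitters' processing notes name mm10, and the Salmon version and annotation are not given in the sources used here. Identifiers, symbols and positions came from GENCODE M21 on GRCm38, which held 35493 of the 35727 genes. *Acsl1*, *Lipe*, *Adrb3* and *Gpd1* share 384 to 1039 exon bases with genes on the opposite strand and *Cebpa*, *Plin4*, *Elovl6* and *Agpat2* 17 to 64, and how strand entered the quantification was not stated.

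The quasi-likelihood test of edgeR 4.0.16 (R 4.3.3) was run on all 12 libraries (TMM, filterByExpr at a count of 10 and total of 15, 1 mean per group, 6 residual degrees of freedom, Benjamini-Hochberg over 15506 genes, called under 0.05). The fit was also run on simulated counts as a check of the code, which adds no support to the results. Where a group had 0 counts, the fold is a bound against a floor of 3 counts over the group. With 1 to 3 counts the ratio has an exact 95% counting interval.

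The labels do not state whether replicate numbers pair *Sox17*-*Erg* with control libraries. Deviations from group means correlated by 0.139, 0.253 and 0.134 between the arms at the 3 times, which does not settle it. The main fit used no pairing, and blocks on the replicate number were run as alternatives, under which some calls differ. Within an arm, numbers of Day 3 and Day 7 correlated by 0.142 and 0.17, but those of 4 weeks with earlier times by -0.095 to -0.049, so the block over all libraries ties numbers that the data do not pair. Alternatives were DESeq2 1.42.0 and its size factors, other filters and thresholds, single time points, replicate blocks and leaving out each library.

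All 35 genes were described. Of every other list counts per direction were given. In the lists of fat cell formation, lipid handling and progenitors the 2 called genes of largest change at each time were named, with their values at the other times where called. Members and lists were chosen with earlier results of these data known.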

Additional observations from a re-analysis of the deposited data

Results flagged for a closer look

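Among the 141 tested genes of the other lists, 11 had a *Sox17*-*Erg* effect at 4 weeks that differed from the effect at Day 3 by edgeR's test of the difference itself, 8 of them higher and 3 lower (2.22% and 0.987% of all genes). *Pi16*, a marker of a progenitor layer of fat and of universal fibroblasts, had a difference of 4.03 (log2, adjusted p = 0.0064). It was at 1.21 and 0.862 CPM in *Sox17*-*Erg* samples at Day 3 and 25.2 and 15.3 CPM at 4 weeks, and between 0.614 and 1.05 CPM in the control libraries. *Cd9*, a tetraspanin, had a difference of 3.87 (adjusted p = 0.00061), with control levels of 82.4 and 95.8 CPM at Day 3 and 19.6 and 19.6 CPM at 4 weeks against 55.5 and 67.8 CPM and 225 and 172 CPM. *Zfp423*, a zinc finger factor of preadipocytes, had a difference of 2.05 (adjusted p = 0.048). It was at 10.2 and 10.6 CPM in *Sox17*-*Erg* samples at 4 weeks and at 3.21 CPM or less in every control library. *Fabp5*, a fatty acid carrier related to *Fabp4*, had a difference of -1.47 (adjusted p = 0.031), being higher in *Sox17*-*Erg* samples at Day 3 (1.45 ± 0.21) and at -0.02 ± 0.21 at 4 weeks. The other 7 were cell type markers. Of the fibroblast markers *Postn* had a difference of 4.40 (adjusted p = 0.0013) and *Fbln1* -3.80 (adjusted p = 0.0042). The endothelial marker *Pecam1* had a difference of 3.54 (adjusted p = 0.011). Of the mural markers *Cspg4* had 3.36 (adjusted p = 0.011), *Myh11* 3.12 (adjusted p = 0.0065), *Notch3* 1.98 (adjusted p = 0.022) and *Abcc9* -2.84 (adjusted p = 0.022). With 2 libraries per group no test for outlying libraries within a group was made.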

How the results depend on the processing

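Of 74 calls of single genes over all comparisons, 26 were of the 7 genes that passed the filter only through control libraries and say nothing of stability. Of the other 48 none reversed under any alternative run. All 48 were kept with DESeq2, its size factors, no filter and a minimum count of 30, 45 with the replicate block over all libraries, 41 with a log2 fold change of at least 1, and 19 at an adjusted p under 0.01. Fits of single time points kept 13 of 20 and blocks within time points 18 of 20. Calls in the other lists were not refitted. The replicate block lost the calls of *Gpd1* at Day 7, *Cebpa* at 4 weeks and *Fabp4* in control samples from Day 3 to 4 weeks.

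*Sox17*-*Erg* against control at Day 3 gave 6 genes with DESeq2, 9 without a filter, 0 at an adjusted p under 0.01, 4 with the replicate block over all libraries, 7 with the block within time points and 6 from that time point alone. The Day 7 count was 6 at an adjusted p under 0.01 and 3 from that time point alone, and the 4 week count 10 at an adjusted p under 0.01. In control samples Day 3 to Day 7 gave 19 without a filter and 0 at an adjusted p under 0.01, Day 7 to 4 weeks 1 without a filter, and Day 3 to 4 weeks 10 at an adjusted p under 0.01. In *Sox17*-*Erg* samples Day 3 to Day 7 gave 6 with DESeq2, 11 without a filter, 2 with a minimum count of 30, 0 at an adjusted p under 0.01 and 2 with the replicate block. Day 7 to 4 weeks gave 1 with DESeq2 and 4 without a filter, and Day 3 to 4 weeks 7 at an adjusted p under 0.01. The difference between effects at 4 weeks and Day 3 gave 10 with DESeq2 and 11 without a filter. The cause of these shifts was not tested.

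Leaving out each library moved the count of genes between the arms within 0 to 5 (Day 3), 0 to 19 (Day 7) and 6 to 20 (4 weeks). In control samples it gave 0 to 12, 0 to 1 and 7 to 20 for Day 3 to Day 7, Day 7 to 4 weeks and Day 3 to 4 weeks, in *Sox17*-*Erg* samples 0 to 3, 0 to 0 and 3 to 14, and 0 to 5 for the difference between effects. The lone library of a group was then assumed to vary like the other groups. Depth limited *Lep*, *Cidea*, *Pck1* and *Ucp1*, whose absence cannot be claimed.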
